A study of Mus musculus with 8 samples.

Results

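The GIMAP proteins (GTPases of immunity-associated proteins) are guanine nucleotide-binding proteins made mainly by lymphocytes, and their genes lie side by side in a single cluster. The 8 mouse genes measured here were every row of the deposited table whose gene name was Gimap1, Gimap3, Gimap4, Gimap5, Gimap6, Gimap7, Gimap8 or Gimap9, out of 18438 genes in all. All 8 passed the filter on low values (values of 10 or more in 2 or more libraries), which 13358 genes passed.

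RNA-seq was done on spleen T cells of C57BL/6 mice. All groups had been given experimental autoimmune encephalomyelitis, a model of multiple sclerosis, with the myelin protein MOG and were at its day 7. The cells called regulatory T cells (Treg) had been gated as CD4+ CD25hi YFP+. Those called effector T cells (Teff) were CD4+ CD25- YFP- cells. The 4 groups were Treg from IRE1a-/- mice (Treg KO), Treg from wild-type mice (Treg WT), Teff from IRE1a-/- mice (Teff KO) and Teff from wild-type mice (Teff WT), with 2 libraries each. IRE1a, the product of Ern1, senses unfolded protein in the endoplasmic reticulum. The age of the mice, the cells that carry the deletion, what drives it and which part of Ern1 is removed are not given in the sources used here. Nor is it given whether a group's libraries are from different animals, so the p-values reflect variation between libraries that may be technical. Library sums of the normalized read numbers ranged from 17504097 to 18751258, and Gimap genes together made up 0.366% to 0.434% of a library. Ern1 itself had values of 326 and 359 in Treg KO, against 377 and 399 in Treg WT, and of 458 and 453 in Teff KO, against 559 and 616 in Teff WT. Its values were lower in all 4 KO libraries than in the WT libraries of the same cell type, but neither difference passed the test (limma adjusted p = 0.489 in Treg and 0.0902 in Teff).

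GIMAP proteins bind GTP through a conserved loop and many are anchored to membranes inside the cell, where family members are thought to assemble and to regulate one another. They are best known for keeping peripheral T cells alive. Loss of Gimap5 in rats and mice leaves few T cells, and the family has been tied to the BCL-2 proteins that control cell death and to autophagy. The values are not divided by gene length, so levels are compared between genes only per kb of the longest annotated transcript. Fold changes are log2 differences of value + 1, fitted over all 8 libraries with limma and adjusted over 13358 genes by the Benjamini-Hochberg method. A difference is called at an adjusted p below 0.05. The scale understates changes of weakly expressed genes, but no Gimap value was below 1079.

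All 8 genes lie within 124 kb of mouse chromosome 6, from 48647234 to 48770851 on GRCm38 (mm10). In order of position they are Gimap8, Gimap9, Gimap4, Gimap6, Gimap7, Gimap1, Gimap5 and Gimap3. Gimap6 and Gimap3 are on the minus strand and the other 6 on the plus strand. Each is annotated as protein coding. The proteins have between 291 residues (Gimap9) and 328 residues (Gimap4), except for Gimap8 with 688. The codons for the GTP-binding loop show what the family shares. They are given below from the GENCODE transcripts of release M21, 5′ to 3′, with the codons of the first glycine and of the closing glycine, lysine and serine in capitals. Gimap8 holds 3 copies of the loop and is shown by its first.
Gimap1: GGCaggactgggaccGGCAAGAGT
Gimap3: GGCaaatctggctgcGGTAAAAGC
Gimap4: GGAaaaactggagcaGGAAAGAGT
Gimap5: GGCaaatctggctgcGGTAAAAGC
Gimap6: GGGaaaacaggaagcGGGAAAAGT
Gimap7: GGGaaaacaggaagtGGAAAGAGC
Gimap8: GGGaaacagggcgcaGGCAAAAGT
Gimap9: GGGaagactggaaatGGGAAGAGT
The loops of Gimap3 and Gimap5 are the same base for base, and these 2 proteins were also the most alike pair of the family, with 82.7% identical residues over their alignment. The next closest pair was Gimap7 and Gimap9, with 53.6%.

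Such likeness bears on which reads can be told apart. Of the 50-base windows (the read length) in the annotated transcripts, 190 occur in both Gimap3 and Gimap5, which is 7.52% of the windows of Gimap3 and 4.53% of those of Gimap5. For Gimap1 the share that also occurs in any other gene was 35.5%, most of it (32.4% of its windows) with the antisense gene Gimap1os. The protocols name no step that marks the strand. Without one, reads of Gimap1 and Gimap1os from these windows cannot be told apart, so the value of Gimap1 is uncertain. A longer annotated gene, Gm28053, overlaps Gimap7, Gimap1 and Gimap5 on the same strand and shares 1.39% of the windows of Gimap7, 4.78% of those of Gimap1 and 2.50% of those of Gimap5. Gimap4, Gimap8 and Gimap9 share no such window with another annotated gene.

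Per kb of transcript, Gimap3 was the strongest member in all 8 libraries, with a mean of 10238 per kb (range 8568 to 11897), and Gimap5 the weakest, with 682 per kb (534 to 834). This order rests on the length of the longest annotated transcript, and which transcripts the cells make was not measured. Gimap4 followed Gimap3 with 7485 per kb and Gimap6 came next with 6991 per kb. Gimap4 was above Gimap6 in 5 of 8 libraries, namely every Treg library and Teff WT replicate 2. In the remaining Teff libraries Gimap6 was above Gimap4. A second tier held Gimap8 (1997 per kb), Gimap1 (1705 per kb), Gimap7 (1547 per kb) and Gimap9 (1234 per kb), whose ranges overlapped from each to the next. Gimap8 was nevertheless above Gimap1 in all 8 libraries. Gimap7 stood at place 4 or 5 in the Treg libraries and at place 6 or 7 in the Teff libraries, and Gimap8, Gimap1 and Gimap9 shifted by 1 place beside it.

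**Figure D1:**
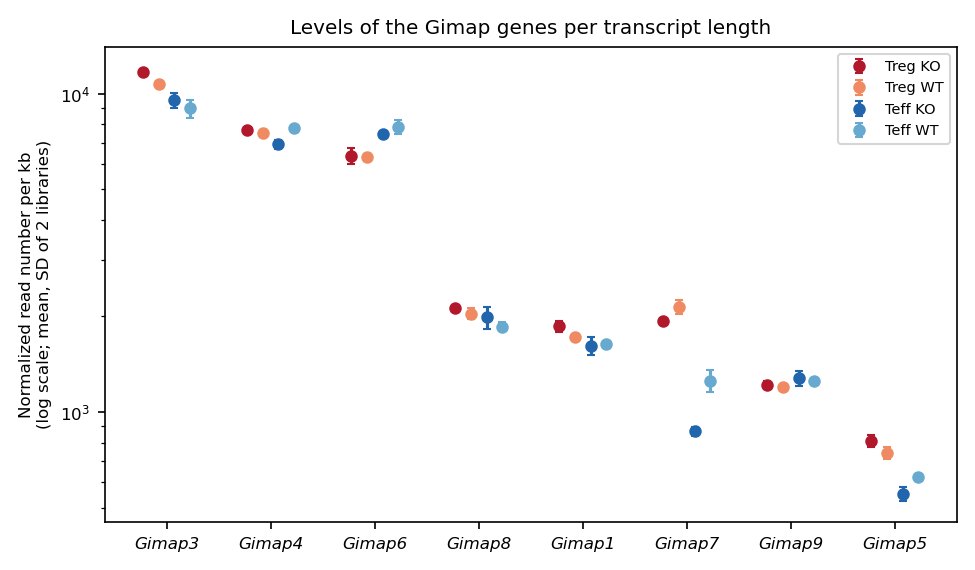
Mean normalized read number per kb of longest transcript (log scale) of each Gimap gene in the 4 groups, with the SD of 2 libraries. Gimap3, Gimap4 and Gimap6 sit several-fold above the rest, and Gimap7 is the gene whose groups lie farthest apart.

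The genes differed in how far they varied. Across the 8 libraries the highest value of Gimap7 was 2.60 times its lowest, against 1.56 for Gimap5, 1.39 for Gimap3, 1.32 for Gimap6, 1.24 for Gimap1, 1.17 for Gimap8, 1.16 for Gimap4 and 1.12 for Gimap9. Gimap5 and Gimap7 went together most closely (Pearson r = 0.93 between their log2 values over 8 libraries). Gimap3 and Gimap8 also went together (r = 0.87), whereas Gimap6 ran against Gimap7 (r = -0.83), Gimap5 (r = -0.81) and Gimap3 (r = -0.81). These correlations are descriptions. The libraries fall into 4 groups, and values of 1 library share its scaling.

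Gimap7 was the only member called for KO against WT in the limma fit. The human protein GIMAP7 is known to speed GTP hydrolysis by another family member. In Teff, its normalized read numbers were 1130 and 1079 in KO, against 1498 and 1685 in WT. Both KO libraries lay below both WT libraries. Here and elsewhere, separation of 2 libraries from 2 others is a description only. The share of all genes that separate in this way was not computed. Gimap7 fell to 1105 ± 36.1 in Teff KO, against 1592 ± 132 in Teff WT (mean ± SD, n = 2 each), a log2 fold change of -0.52 (SE 0.08, 95% interval -0.71 to -0.34) and a ratio of 0.695 (limma adjusted p = 0.0116). In Treg, the values were 2406 and 2483 in KO, against 2805 and 2623 in WT. These groups did not overlap either, but the log2 fold change of -0.15 (SE 0.08, 95% interval -0.33 to 0.03) was not called (limma adjusted p = 0.448). The effects in Treg and Teff differed by 0.37 (SE 0.11, 95% interval 0.11 to 0.63), with an unadjusted limma p of 0.0111 and an adjusted p of 0.313, so a difference between the cell types was not called.

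The call of Gimap7 in Teff was lost in 3 of 19 alternatives: without Teff WT replicate 2 (log2 fold change -0.44, limma adjusted p = 0.0543), without Teff KO replicate 2 (-0.49, limma adjusted p = 0.0642) and with a fit to the Teff libraries alone (limma adjusted p = 0.0685). Over all alternatives its log2 fold change stayed between -0.61 and -0.44. The authors' deposited table gives a log2 fold change of -0.53 and an adjusted p of 1.61e-05 for Gimap7 in Teff.

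In Teff 1 of the 8 Gimap genes was thus called lower and 0 higher in KO. Of all genes tested there, 5.08% were called lower and 1.84% higher. The other 7 members had log2 fold changes from -0.18 to 0.10. Gimap4, a gene known in mice for hastening the death of T cells, came nearest to the threshold. Its values were 12197 and 12773 in Teff KO, against 14159 and 14008 in Teff WT, with no overlap and a log2 fold change of -0.17 (SE 0.04, limma adjusted p = 0.0571). The authors' deposited table calls Gimap4 in Teff, with the same log2 fold change of -0.17 and an adjusted p of 0.0142. Gimap5 had 1242 and 1330 in Teff KO, against 1476 and 1432 in Teff WT. These libraries did not overlap, and the log2 fold change was -0.18 (SE 0.07, limma adjusted p = 0.209). Gimap6 had 23588 and 23711 in Teff KO, against 25788 and 24026 in Teff WT, again without overlap (log2 fold change -0.07, limma adjusted p = 0.495). For Gimap1, Gimap3, Gimap8 and Gimap9 the KO and WT libraries overlapped, with log2 fold changes of -0.02, 0.09, 0.10 and 0.02 in that order (limma adjusted p = 0.907, 0.454, 0.467 and 0.885).

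In Treg none of the 8 genes was called for KO against WT by limma, and none had an unadjusted p below 0.05. The authors' deposited table, which used another tool, gives no adjusted p below 0.05 for any of them in Treg either. Among all genes tested, 1.45% were called in either direction, and 1964 had an unadjusted p below 0.05. The log2 fold changes of 7 of 8 members were above 0 (median 0.05, against -0.01 over all genes tested). The 95% intervals of all 8 lay between -0.33 and 0.30. Gimap3 had the largest change above 0 together with Gimap5. Its values were 25519 and 24728 in Treg KO, against 22749 and 23235 in Treg WT, with a log2 fold change of 0.13 (limma adjusted p = 0.390). Gimap5 had 1832 and 1942 in Treg KO, against 1779 and 1673 in Treg WT, and the same log2 fold change of 0.13 (limma adjusted p = 0.477). The changes of Gimap1 (0.11, limma adjusted p = 0.517), Gimap8 (0.06, limma adjusted p = 0.741), Gimap4 (0.04, limma adjusted p = 0.756), Gimap6 (0.02, limma adjusted p = 0.930) and Gimap9 (0.02, limma adjusted p = 0.930) were smaller.

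Gimap4 and Gimap5 thus lay higher in both KO libraries than in both WT libraries in Treg and lower in both in Teff. How often other genes do so was not computed. The difference between the effects, Treg minus Teff, was 0.21 for Gimap4 (SE 0.06) and 0.31 for Gimap5 (SE 0.10). Neither was called (limma adjusted p = 0.302 and 0.363), and no other member was. An unadjusted limma p below 0.05 was found for 3 of the 8 members and for 1384 of all 13358 genes tested. For Gimap1, Gimap3, Gimap6, Gimap8 and Gimap9 the difference was 0.12, 0.04, 0.09, -0.04 and -0.00 in that order. Of all genes, 0.0225% were called for this difference.

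**Figure D2:**
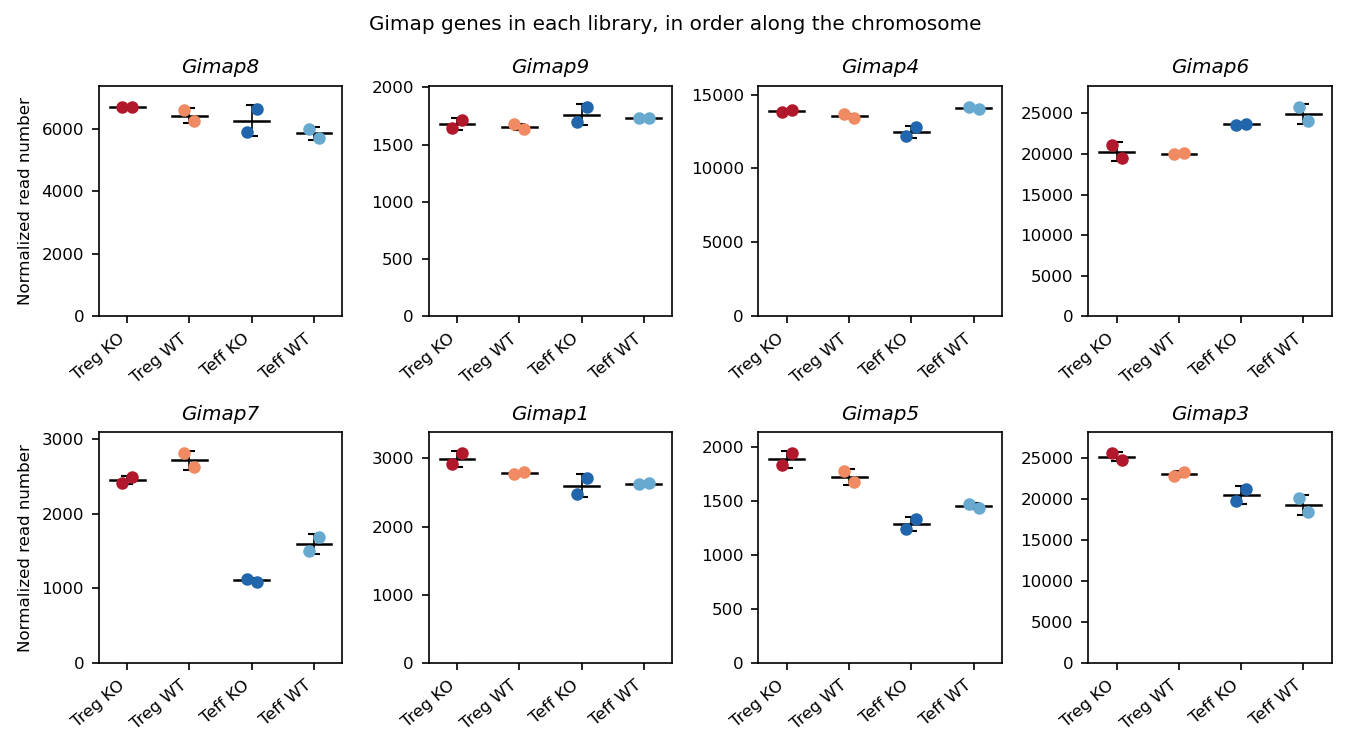
Normalized read number of each Gimap gene in each library (points), with the group mean and SD (black, n = 2), in order along chromosome 6. Gimap7 is lowest in Teff KO (1079 to 1130) and highest in Treg WT (2623 to 2805), and the groups of Gimap9 nearly coincide.

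The comparison of Treg with Teff set the members apart more clearly, and Gimap7 again most of all. The values of Gimap7 were 2406 and 2483 in Treg KO, against 1130 and 1079 in Teff KO, and 2805 and 2623 in Treg WT, against 1498 and 1685 in Teff WT. The order from high to low was Treg WT, Treg KO, Teff WT and Teff KO, with no overlap between neighbouring groups. Gimap7 was 2.21 times as high in Treg as in Teff of KO mice (log2 fold change 1.15, SE 0.08, limma adjusted p = 6.53e-05). In WT mice the ratio was 1.71 (log2 fold change 0.77, SE 0.08, limma adjusted p = 0.000494). Both calls held in all 18 alternatives. The ratio of the undivided values of Gimap7 and its closest relative Gimap9 serves to compare libraries. It was 1.46 and 1.45 in Treg KO, against 0.667 and 0.590 in Teff KO, and 1.67 and 1.60 in Treg WT, against 0.863 and 0.973 in Teff WT. The 2 genes thus moved apart within single libraries, where a scaling factor cancels.

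Gimap5, the member needed for T cell survival in mice and rats, was also higher in Treg. Its values of 1832 and 1942 in Treg KO stood against 1242 and 1330 in Teff KO, a ratio of 1.47 (log2 fold change 0.55, SE 0.07, limma adjusted p = 0.00123), and this call held in all 18 alternatives. In WT the values were 1779 and 1673 in Treg, against 1476 and 1432 in Teff, with a log2 fold change of 0.25 (SE 0.07, limma adjusted p = 0.0437). That call held in only 6 of 18 alternatives.

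Gimap3, which in mice has been linked to mitochondria and to BCL-2 family proteins, rose in Treg of both genotypes. It had 25519 and 24728 in Treg KO, against 19690 and 21241 in Teff KO (log2 fold change 0.30, SE 0.06, limma adjusted p = 0.00935). In WT, the values were 22749 and 23235 in Treg, against 20148 and 18378 in Teff (log2 fold change 0.26, SE 0.06, limma adjusted p = 0.0181). No Treg library of either genotype fell to the level of a Teff library. The WT call was lost without Treg WT replicate 1, without Treg WT replicate 2 and without Teff WT replicate 2, and the KO call without Treg KO replicate 1. Both calls were also lost in a fit without the trend and robust settings. Over all alternatives the limma adjusted p reached 0.102 in WT and 0.0638 in KO.

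Gimap6 was the only member called lower in Treg. Human GIMAP6 binds a GABARAP protein of the autophagy machinery. Its values were 21127 and 19466 in Treg KO, against 23588 and 23711 in Teff KO (log2 fold change -0.22, SE 0.05, limma adjusted p = 0.0217). In WT they were 19946 and 20142 in Treg, against 25788 and 24026 in Teff (log2 fold change -0.31, SE 0.05, limma adjusted p = 0.00543), a ratio of 0.805. All 4 Treg libraries lay below all 4 Teff libraries. This result depended on scaling: under quantile normalization the log2 fold change was -0.10 in WT and 0.00 in KO and neither was called. The KO call was also lost after scaling to library totals, in the fit without the trend and robust settings, without Treg KO replicate 2 and without either Teff KO library.

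Gimap4 was called in KO only, with 13850 and 13946 in Treg, against 12197 and 12773 in Teff (log2 fold change 0.16, SE 0.04, limma adjusted p = 0.0335), a call that held in 9 of 18 alternatives. In WT it had 13661 and 13430 in Treg, against 14159 and 14008 in Teff (log2 fold change -0.06, limma adjusted p = 0.393; under quantile normalization 0.10). Gimap1, which mature T and B cells of mice need to persist, had 2913 and 3073 in Treg KO, against 2482 and 2719 in Teff KO (log2 fold change 0.20, limma adjusted p = 0.0543). It was called in 3 of 18 alternatives, after scaling to library totals, with a minimum value of 50 and without Teff KO replicate 2 (limma adjusted p = 0.0202, 0.0481 and 0.0393). In WT it had 2766 and 2798 in Treg, against 2623 and 2639 in Teff (log2 fold change 0.08, limma adjusted p = 0.419). How much of these values comes from its antisense partner was not measured.

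Gimap8, the member with 3 GTP-binding loops, was not called in any comparison. It had 6700 and 6700 in Treg KO, against 5910 and 6619 in Teff KO, and 6604 and 6248 in Treg WT, against 5995 and 5713 in Teff WT. Gimap9 was not called either and was the steadiest gene of the family. Its values were 1643 and 1717 in Treg KO, against 1695 and 1829 in Teff KO, and 1676 and 1636 in Treg WT, against 1735 and 1731 in Teff WT. The 95% interval of its log2 fold change was -0.22 to 0.09 in both genotypes.

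In KO, 4 members were thus called higher and 1 lower in Treg than in Teff, where 15.7% and 11.2% of all genes tested were called higher and lower. In WT, 3 were called higher and 1 lower, where 13.5% and 11.6% of all genes were. The median log2 fold change of the 8 members was 0.18 in KO and 0.11 in WT, against 0.00 and -0.00 over all genes tested. Set against the whole table, 85.1% of genes tested had a smaller change than Gimap7 between Treg and Teff in KO and 78.5% in WT.

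**Figure D3:**
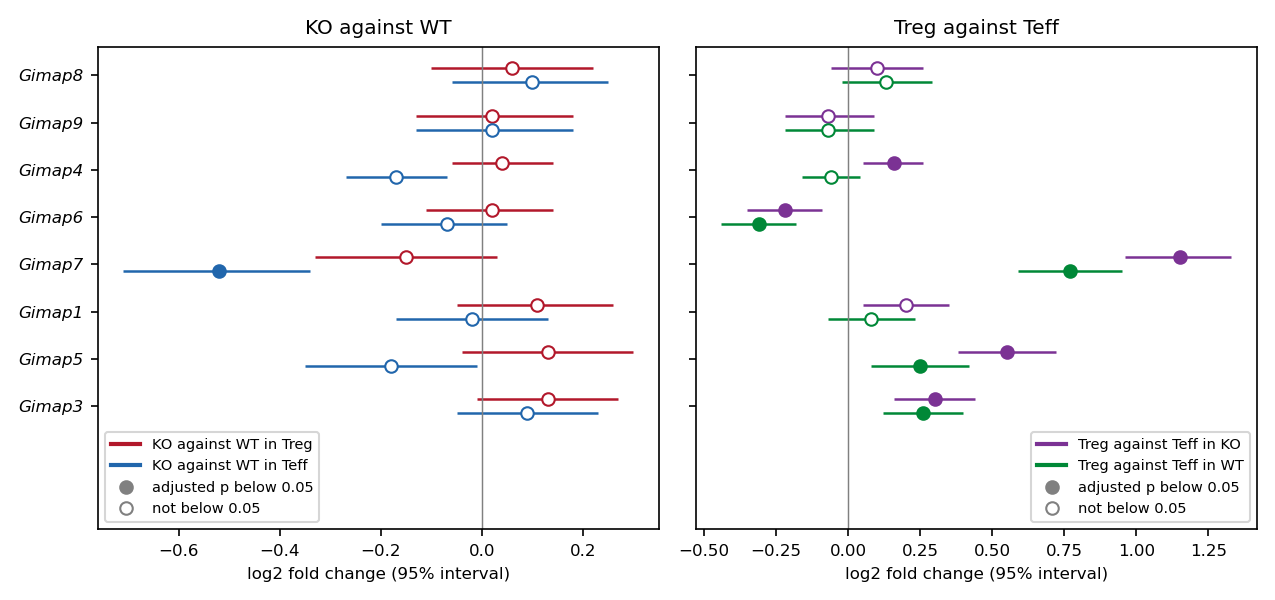
Log2 fold change of each Gimap gene with its 95% interval, for KO against WT (left) and Treg against Teff (right), in order along chromosome 6. Filled points have an adjusted p below 0.05: Gimap7 in Teff at left, and at right Gimap7, Gimap5, Gimap3 and Gimap6 in both genotypes and Gimap4 in KO.

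Markers of the sorted cells and of others moved with these comparisons. Of 7 T cell markers fixed for the check 5 are in the table, and their summed value was 50909 to 52367 in Treg KO, 51624 to 53791 in Treg WT, 59275 to 59547 in Teff KO and 62888 to 64024 in Teff WT. The 5 Treg markers (Foxp3, Il2ra, Ikzf2, Ctla4 and Il2rb) summed to 69355 to 70210 in Treg KO and 76307 to 76620 in Treg WT, and to 13820 to 15703 in Teff KO and 20448 to 22662 in Teff WT. Their sum thus followed the same order over the 4 groups as Gimap7. Foxp3 did not, with values higher in KO than in WT in both cell types. Foxp3 alone was low for its cell type, at 111 and 117 in Treg KO and 89.1 and 92.2 in Treg WT, while Teff KO had 2.06 and 8.29 and both Teff WT libraries are listed at 0. In bulk samples, fewer cells of a type and less RNA per cell cannot be told apart.

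Markers of macrophages (6 of 7 in the table) summed to 7421 to 7815 in Treg KO and 12715 to 13031 in Treg WT, against 495 to 643 in Teff KO and 691 to 1464 in Teff WT, and so also ran in the order of Gimap7. The 5 B cell markers, nearly all of it Ighm, summed to 16951 to 17290 in Treg KO, 11411 to 11424 in Treg WT, 6484 to 7094 in Teff KO and 5235 to 5563 in Teff WT. Erythroid markers (4 of 5) summed to 908 to 981 in Treg KO, 1119 to 1209 in Treg WT, 133 to 173 in Teff KO and 122 to 250 in Teff WT. The sum of dendritic cell markers (5 of 5) had the opposite order of cell types, with 256 to 278 in Treg KO, 478 to 524 in Treg WT, 734 to 1288 in Teff KO and 1348 to 2340 in Teff WT. So had the sum of markers of NK and CD8 T cells (5 of 5), with 744 to 744, 749 to 818, 1244 to 1341 and 1803 to 1959 in the same groups. Not every gene followed these sums. Zbtb46, a dendritic marker, was higher in Treg (169 and 154 in KO, 295 and 278 in WT) than in Teff (59.2 and 53.3 in KO, 101 and 153 in WT). The CD8 genes Cd8a and Cd8b1 overlapped between Treg and Teff. Cd8b1 had 226 and 250 in Treg KO, 217 and 215 in Treg WT, 249 and 257 in Teff KO and 207 and 229 in Teff WT. Endothelial cells also make Gimap transcripts. Their markers (4 of 5) summed to 10.1 to 17.2 in Treg KO, 16.7 to 17.5 in Treg WT, 23.0 to 49.7 in Teff KO and 62.7 to 69.2 in Teff WT. No marker of any list was at 0 in all 8 libraries. Tek, an endothelial marker, was at 0 in 5 of 8, and Ncr1, an NK cell marker, was at 0 in all 4 Treg libraries and in Teff KO replicate 1. The part of these cell types in the Gimap results was not tested.

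Genes around the cluster were examined in the same way. Within 500 kb on either side, 18 of 52 other annotated genes are in the table and 16 were tested. None was called for KO against WT in Treg or in Teff. Of all genes tested, 1.45% were called in Treg, and 5.08% were called lower and 1.84% higher in Teff. Between Treg and Teff, the same 6 were called in both genotypes, 4 higher and 2 lower, and most changed far more than the Gimap genes. Of all genes tested, 15.7% were called higher and 11.2% lower in KO, and 13.5% higher and 11.6% lower in WT. Those called higher in Treg all lie on the Gimap8 side of the cluster. Sspo, the gene of a secreted protein of the brain, had a log2 fold change of 4.20 in KO and 4.22 in WT. Zfp862-ps (2.37 in KO and 1.85 in WT), Lrrc61 (1.39 and 1.61 in the same order) and Zfp467 (1.02 and 0.99) were the others. On the Gimap3 side, the membrane protein genes Tmem176b (-2.34 in KO and -2.65 in WT) and Tmem176a (-2.48 in KO and -2.66 in WT) were called lower. The 4 tested genes nearest to Gimap8 before the cluster begins, Rarres2, Repin1, Zfp775 and AI854703, were not called in any of these comparisons.

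**Figure D4:**
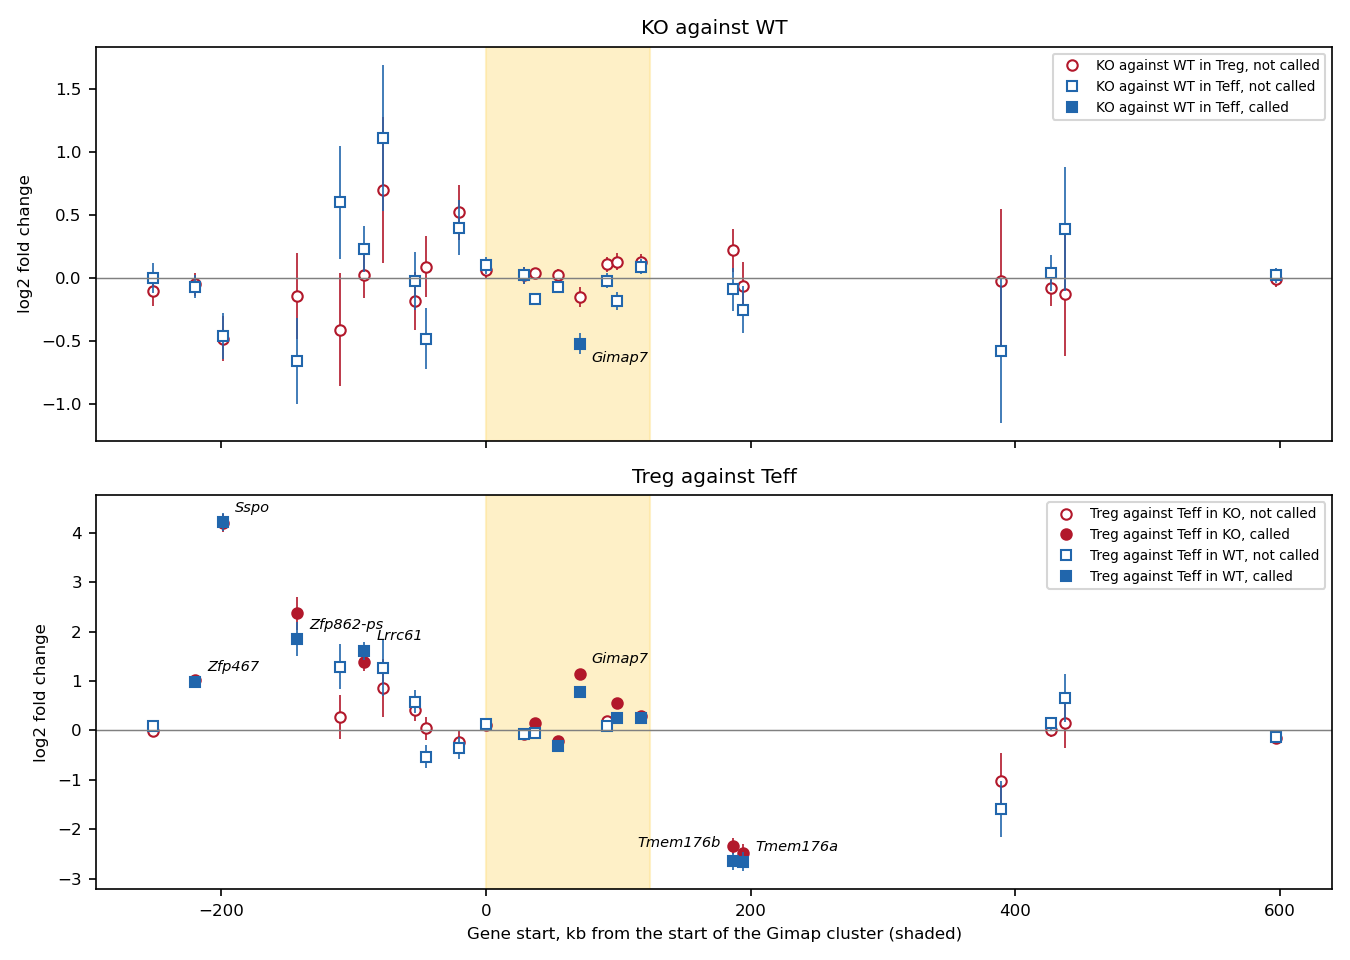
Log2 fold change (points, with SE) of every tested gene within 500 kb of the Gimap cluster, by distance of the gene's lower end from the start of the cluster (shaded), for KO against WT (top) and Treg against Teff (bottom). Gimap7 is the only filled point at top, and in the lower panel the Gimap genes lie between larger changes of opposite sign on either side.

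The promoters of the 4 members called in Treg against Teff in both genotypes show what sequence lies at their starts, for 3 genes that were higher and 1 that was lower. Each is 300 bases of GRCm38.p6 from RefSeq, 5′ to 3′ on the gene's strand, with 250 bases before the start site and 50 after. Capitals mark matches, on either strand, to the words TGTGGT (Runx), GTAAACA (forkhead), CACCC (Klf), GGGAA (Ikaros), CAGGAA (ETS), CTTTGA (Tcf/Lef) and CACGTG (E-box). The first is Gimap7 at chr6:48718371-48718670 (plus strand), then Gimap5 at chr6:48745947-48746246 (plus), Gimap3 at chr6:48770802-48771101 (minus) and Gimap6 at chr6:48708195-48708494 (minus).
Gimap7: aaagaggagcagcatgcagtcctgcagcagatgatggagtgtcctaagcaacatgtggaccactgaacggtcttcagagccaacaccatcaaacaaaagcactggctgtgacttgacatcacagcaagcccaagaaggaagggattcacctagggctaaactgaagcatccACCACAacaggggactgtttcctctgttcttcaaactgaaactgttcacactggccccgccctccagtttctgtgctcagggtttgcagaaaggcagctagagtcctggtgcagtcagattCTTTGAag
Gimap5: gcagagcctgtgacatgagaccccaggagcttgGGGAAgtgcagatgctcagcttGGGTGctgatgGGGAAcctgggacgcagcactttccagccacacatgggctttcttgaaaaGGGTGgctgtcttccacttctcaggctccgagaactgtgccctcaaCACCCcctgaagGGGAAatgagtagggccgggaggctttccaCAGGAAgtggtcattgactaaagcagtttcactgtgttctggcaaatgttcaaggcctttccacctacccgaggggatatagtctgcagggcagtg
Gimap3: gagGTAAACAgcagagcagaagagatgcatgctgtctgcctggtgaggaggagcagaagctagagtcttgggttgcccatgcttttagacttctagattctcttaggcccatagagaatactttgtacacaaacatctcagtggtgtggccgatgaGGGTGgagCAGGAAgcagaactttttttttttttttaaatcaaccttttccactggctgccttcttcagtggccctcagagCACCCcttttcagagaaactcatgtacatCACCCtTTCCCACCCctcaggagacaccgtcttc
Gimap6: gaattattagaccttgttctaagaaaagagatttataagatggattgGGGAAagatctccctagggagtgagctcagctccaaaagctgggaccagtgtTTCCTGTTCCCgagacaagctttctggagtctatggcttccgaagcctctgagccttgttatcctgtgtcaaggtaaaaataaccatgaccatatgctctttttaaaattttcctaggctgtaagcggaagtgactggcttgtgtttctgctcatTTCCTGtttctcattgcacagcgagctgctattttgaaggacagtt
Gimap7 stood apart from the other 3 in its words: it held a Runx word at position -79 and a Tcf/Lef word at position 42 from the start site, and no ETS, Ikaros or Klf word. Gimap5, Gimap3 and Gimap6 each held ETS and Ikaros words. In Gimap3 an Ikaros and a Klf word overlap, and in Gimap6 an ETS word runs on into an Ikaros word. RefSeq promoters matched all 8 members. Over these, the ETS word was found in 5 of 8 genes (30.6% of 32851 promoter windows of the same length), the Klf word in 5 (57.5%), the Ikaros word in 4 (62.7%), the Runx word in 3 (16.8%), the Tcf/Lef word in 2 (16.0%), the forkhead word in 1 (3.65%) and the E-box word in 0 (7.15%). A match is a string of letters and no evidence that a factor binds.

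Genes that have been reported to control Gimap genes were followed as a list of 13, of which 12 were tested. None was called for KO against WT in Treg, and 1 was called higher in Teff, Foxp3, at the low values given above. No Teff value of Foxp3 reached the minimum of the filter, which the gene passed through its Treg libraries alone. With both Teff WT libraries at 0, its fold change also depends on the 1 added to each value. The call therefore cannot be read as a change of Foxp3 in Teff. Of all genes tested, 1.84% were called higher in Teff. Between Treg and Teff, 2 of the 12 were called higher and 3 lower in KO, and 2 higher and 4 lower in WT. The shares of all genes called higher and lower were 15.7% and 11.2% in KO and 13.5% and 11.6% in WT. The median log2 fold change of the list was 0.01 in KO and -0.10 in WT. Ikzf1, which encodes Ikaros, averaged 5644 in Treg KO, against 14505 in Teff KO, and 5070 in Treg WT, against 15201 in Teff WT (log2 fold change -1.36 in KO and -1.58 in WT, limma adjusted p = 0.000441 and 0.000302). Tcf7, a transcription factor of naive and memory T cells, was lower in Treg by the same measure (-1.65 in KO and -1.54 in WT). Gata3, a factor of T helper 2 cells that Treg also express, was higher (1.51 in KO and 1.39 in WT). Runx3 was called in KO only (-1.61, limma adjusted p = 0.00122).

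Partners in cell survival and autophagy formed a list of 17 genes, all tested. For KO against WT, 1 was called higher in Treg, where 0.674% of all genes were called higher. In Teff 1 was called higher and 2 lower, where 1.84% and 5.08% of all genes were. Bcl2l11, the gene of the pro-death protein BIM, rose in KO in both cell types. It averaged 1301 in Treg KO, against 669 in Treg WT (log2 fold change 0.95, SE 0.10, limma adjusted p = 0.00626), and 1759 in Teff KO, against 1159 in Teff WT (0.60, SE 0.10, limma adjusted p = 0.0168). Bcl2l1, which encodes the survival protein BCL-XL, fell to 454 in Teff KO, against 719 in Teff WT (log2 fold change -0.66, SE 0.10, limma adjusted p = 0.0121). Gabarapl1, of the GABARAP family that joins autophagosomes, fell to 95.3 in Teff KO, against 176 in Teff WT (-0.88, SE 0.14, limma adjusted p = 0.0148). These 2 genes were also higher in Treg than in Teff, as Gimap7 was. Bcl2l1 had log2 fold changes of 1.70 in KO and 1.24 in WT, and Gabarapl1 of 2.27 in KO and 1.57 in WT. Bcl2 itself was lower in Treg (-0.29 in KO and -0.46 in WT). In all, 3 of 17 partners were called higher and 2 lower in KO, where 15.7% and 11.2% of all genes were, and 3 higher and 4 lower in WT, where 13.5% and 11.6% were. The KO counts are near those shares.

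Gimap transcripts are often counted among those of resting T cells, so a list of 17 genes typical of naive or resting T cells was set beside them. That list was called lower in Treg for 13 genes in KO and 15 in WT, with 0 higher. Of all genes tested, 11.2% were called lower in KO and 11.6% in WT. The median log2 fold change of the list was -0.67 in KO and -1.01 in WT. Of the Gimap genes, Gimap6 was called in that direction in both genotypes, Gimap3, Gimap5 and Gimap7 in the other direction in both, and Gimap4 in the other direction in KO. For KO against WT the list had 5 genes called higher in Treg and 5 in Teff, with 0 lower in either (median 0.43 and 0.23). Of all genes tested, 0.674% were called higher in Treg and 1.84% in Teff. Il7r, the receptor chain for the survival cytokine IL-7, averaged 10324 in Treg KO, against 7435 in Treg WT (log2 fold change 0.48, limma adjusted p = 0.0480), and 16420 in Teff KO, against 9839 in Teff WT (0.74, limma adjusted p = 0.00493). Satb1, a chromatin organizer of T cells, was the other gene called in both (0.43 in Treg and 0.32 in Teff). S1pr1, a receptor that guides T cells out of lymphoid organs, was called in Treg (0.60, limma adjusted p = 0.00155). Ccr7, a receptor for homing to lymph nodes, was called in Teff (0.41, limma adjusted p = 0.0136). The comparisons of KO with WT and of Treg with Teff share libraries, so their values are given side by side only.

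The genes most like the mean of the family were sought among 9508 genes with enough signal. They were ranked by Pearson correlation over the 8 libraries with the mean of the 8 members' centred log2 values. Members that vary most weigh most in this mean. It does not stand for every member, since Gimap6 ran against Gimap7, Gimap5 and Gimap3. That mean ran from -0.19 in Teff KO replicate 1 to 0.13 in Treg KO replicate 2. The closest were Plekhb2 (r = 0.993), Zbtb1 (0.991), Smc4 (0.987), Vsig10 (0.984), Msl3l2 (0.984), Manbal (0.983), Cenpa (0.981) and Tdg (0.976). Smc4, a condensin subunit, averaged 10497 in Treg KO, 10056 in Treg WT, 4033 in Teff KO and 5454 in Teff WT. For Gimap7 alone, a search chosen after its values were seen, Cd38 and Nrn1 came first (r = 0.997 each), followed by Serpina3g and Rgs1 (r = 0.996 each) and Gabarapl1 (r = 0.995). Cd38 fell to 90.3 in Teff KO, against 185 in Teff WT (log2 fold change -1.03, limma adjusted p = 0.00521), and Nrn1 to 159, against 400 in Teff WT (-1.34, limma adjusted p = 0.00387). With so many genes and so few libraries, high correlations arise readily, and these are descriptions.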

How the data were processed

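Messenger RNA was taken by TRIzol and oligo(dT), copied from random hexamers, amplified by PCR and read as single 50-base reads, per the labels' protocols, which name no strand marking or molecular identifiers. The submitters' processing notes name Salmon 0.14.1, DESeq2 1.28.1, Trim Galore 0.4.4, R 4.0.3 and the build mm10. The authors deposited 1 table of 18438 genes with a normalized read number (signal, not whole and not per length) per library, their log2 fold changes of KO over WT and their adjusted p-values. At most 47.1% of low values in a library were whole multiples of its commonest step (tolerance 0.02), so whole reads were not recoverable and a count test was not made.

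As planned for values that are not counts, limma 3.58.1 (R 4.3.3; trend and robust shrinkage) was fitted to log2(value + 1) of all 8 libraries, 1 coefficient for each group, with 4 residual degrees of freedom. Genes at 10 or more in at least 2 libraries entered, and p-values were adjusted by Benjamini-Hochberg over 13358 genes in each of 5 contrasts, called at 0.05. The fit was tested on simulated data. Library sums of 17504097 to 18751258 were nearly even. With 2 libraries per group, precision rests on the number of libraries. Gene positions and transcripts came from GENCODE M21, promoters from RefSeq. Proteins were aligned with Biopython 1.88, and other steps used pandas 2.3.3, numpy 2.4.6 and matplotlib 3.10.9 in Python 3.11.15.

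Each member is given for each comparison. Of the lists, up to 4 genes per comparison with an adjusted p below 0.05 and the smallest p could be named, and of genes alike in pattern the first 8. The members and lists were chosen with earlier results of these data known. Alternatives were 3 other scalings, 2 pseudocounts, 2 filters, plainer limma settings, the compared groups alone, a replicate block, each library left out and the authors' table.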

Additional observations from a re-analysis of the deposited data

How the results depend on the processing

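The number of Gimap genes called was 0 in every alternative for KO against WT in Treg and for the difference of effects. For KO against WT in Teff it was 1, 0 with only the groups compared, 2 (Gimap4 and Gimap7) in the authors' deposited table, and 0 to 1 with a library left out. For Treg against Teff in KO it was 5, 2 (Gimap5 and Gimap7) without the trend and robust settings, 6 (Gimap1 added) at a minimum value of 50, and 3 to 5 with a library left out. For Treg against Teff in WT it was 4, 2 (Gimap3 and Gimap7) under quantile normalization, 2 (Gimap6 and Gimap7) without the trend and robust settings, and 2 to 4 with a library left out. In WT it was 3, with Gimap5 lost, under upper-quartile scaling, without the filter, with only the groups compared and with a replicate block. In KO it was 4 under upper-quartile scaling, under quantile normalization, with only the groups compared and with a replicate block. Under library totals it stayed 5 in KO, with Gimap1 in place of Gimap6. The cause of these changes was not tested. Over all genes, KO against WT in Teff gave 924 calls, 177 with only the groups compared, 571 without the trend and robust settings and 350 to 639 with a library left out.

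Of 744 single-gene values under an alternative, 689 kept direction and side of the threshold, 36 lost a call, 4 gained one and 15 changed sign. No value that changed sign was called after the change. Under quantile normalization Gimap4 in Treg against Teff in WT was 0.097 and Gimap6 in KO 0.002 (-0.22 in the reported fit, called in 12 of 18 alternatives). Under library totals Gimap9 was 0.006 in Treg against Teff in KO and 0.017 for the difference of effects. With a library left out, the log2 values ranged from -0.084 to 0.048 for Gimap1 and from -0.032 to 0.078 for Gimap9 (KO against WT in Teff), from -0.042 to 0.076 for Gimap6 and from -0.011 to 0.052 for Gimap9 (KO against WT in Treg), and, for the difference of effects, from -0.026 to 0.106 for Gimap3, -0.117 to 0.047 for Gimap8 and -0.057 to 0.053 for Gimap9.

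Same-numbered libraries of KO and WT did not deviate together (r = -0.103 in Treg and -0.116 in Teff over 9381 genes). Those of Treg and Teff hardly did (r = 0.053 in KO and 0.056 in WT). The numbers thus gave no sign of pairing, but such correlations cannot decide whether libraries were paired. With a replicate block, Gimap calls were 0 for KO against WT in Treg, 1 in Teff (Gimap7, limma adjusted p = 0.0264), 4 for Treg against Teff in KO and 3 in WT, and 688 genes were called in all in Teff. A crossed pairing of the numbers, added after seeing the data, gave 0 Gimap calls in Treg and 1 in Teff. The count test was not run.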

Other observations

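Other GTPases of immunity, the interferon-inducible guanylate-binding proteins and immunity-related GTPases that defend cells against microbes, were followed as a list of 17 genes, all tested. None was called for KO against WT in Treg, and 3 were called lower and 0 higher in Teff. Of all genes tested, 1.45% were called in Treg, and 5.08% were called lower and 1.84% higher in Teff. Gbp2 fell to 1450 in Teff KO, against 2045 in Teff WT (log2 fold change -0.50, limma adjusted p = 0.0221), Gbp6 to 1789, against 2359 in Teff WT (-0.40, limma adjusted p = 0.0294), and Gbp3 to 399, against 533 in Teff WT (-0.41, limma adjusted p = 0.0377). Between Treg and Teff, 7 were called higher and 3 lower in KO, and 7 higher and 4 lower in WT (median log2 fold change 0.18 in KO and 0.24 in WT). The shares of all genes called higher and lower were 15.7% and 11.2% in KO and 13.5% and 11.6% in WT. Gbp3 averaged 1765 in Treg KO, against 399 in Teff KO, and 1780 in Treg WT, against 533 in Teff WT. Gbp11 ran the other way, at 68.1 in Treg KO, against 204 in Teff KO, and 50.4 in Treg WT, against 181 in Teff WT (log2 fold change -1.57 in KO and -1.86 in WT).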
